A study of Mus musculus with 6 samples.

Results

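The heat shock proteins and DnaJ proteins of the mouse heart were examined after loss of the adrenal glands. They were chosen by name, as every noncontrol probe whose gene name on the array began with Hspa, Hspb, Hspd, Hspe, Hsph or Hsp90, or with Dnaja, Dnajb or Dnajc. This gave 123 probes of 61 genes, of 41174 noncontrol probes and 28786 gene names in all. ADX hearts came from adrenalectomised male C57BL/6 mice, 3 mice, and sham hearts from sham-operated male C57BL/6 mice, 3 mice. Mice were operated on at 1 month of age and kept for 6 months before the hearts were taken, but the source label gives 6 months as their age, so their exact age is not settled. Adrenalectomy removes all adrenal hormones and not glucocorticoids alone, and the labels state no hormone replacement. Whole-heart RNA was amplified as cDNA, labelled with Cy3 and hybridised to 1-colour Agilent arrays, 1 array per mouse. The series asks what glucocorticoids, the steroid hormones of the adrenal cortex, contribute to the upkeep of the heart.

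Heat shock proteins bind unfolded polypeptides, and the Hsp70 proteins do so in cycles of ATP binding and hydrolysis. DnaJ proteins, also called Hsp40 or J proteins, deliver clients to Hsp70 and start the hydrolysis step, whereas exchange factors release the nucleotide and reset the cycle. Each compartment has its own set: cytosolic Hsp70, Hsp90 and small heat shock proteins, mitochondrial Hspa9 with the Hspd1 and Hspe1 chaperonin, and Hspa5 (BiP) with Hsp90b1 (GRP94) in the endoplasmic reticulum (ER). Cytosolic members are induced by heat shock factors during protein stress, ER members are induced by the unfolded protein response, and Hsp90 also holds the unliganded glucocorticoid receptor in the cytosol.

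By compartment, 31 of the 61 genes were cytosolic or nuclear, 7 mitochondrial and 11 of the ER, and 12 were not assigned. A gene was tested when, in either group, all 3 arrays had one of its probes well above background, and 56 genes met this. They were above background on all 6 arrays and none was saturated. The 5 others were Dnajb7, Dnajb13, Dnajc5b and Dnajc5g, which were not assigned, and cytosolic Dnajc6. Each gene is given by its tested probe of highest mean. What is called the log2 level here is the log2 signal minus the 75th percentile of all noncontrol spots on the same array. Levels of different genes are not compared as amounts of RNA, since each probe has its own response.

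Promoters were searched for the elements through which these genes are known to be induced, in the 250 bases before the start site as RefSeq gives it on GRCm38.p6. A promoter was available for 50 of the 61 genes, with 66 start sites. The ER stress element, searched as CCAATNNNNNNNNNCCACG on both strands, was found in 3 genes, at 4.55% of their start sites against 0.113% of all 32851 start sites. These 3 genes were Hspa5, Hsp90b1 and Dnajc3. The stretches lie at chr2:34771995-34772073 on the plus strand for Hspa5, chr10:86705608-86705686 on the minus strand for Hsp90b1 and chr14:118937797-118937875 on the plus strand for Dnajc3. They are shown because the ER genes are described below by whether they carry this element, and capitals mark its fixed bases.
Hspa5: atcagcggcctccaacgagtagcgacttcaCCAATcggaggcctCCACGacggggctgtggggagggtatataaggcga
Hsp90b1: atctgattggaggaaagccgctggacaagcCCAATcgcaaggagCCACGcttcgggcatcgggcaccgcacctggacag
Dnajc3: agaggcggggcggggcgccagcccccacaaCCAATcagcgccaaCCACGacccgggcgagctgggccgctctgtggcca

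A heat shock element of 3 alternating units was searched as GAANNTTCNNGAA or TTCNNGAANNTTC, and 3 genes held it: Hspd1, Hspe1 and Dnajb6. It occurred at 6.06% of the chaperone start sites and 0.466% of all start sites. Hspd1 and Hspe1 are divergent neighbours that share a promoter, and the stretches at chr1:55088034-55088106 on the minus strand and chr1:55088029-55088101 on the plus strand are opposite readings of the same element. The Dnajb6 stretch is at chr5:29735822-29735894 on the plus strand. The shorter form of 2 units, GAANNTTC or TTCNNGAA, part of the longer form, was present in 11 genes, at 18.2% of their start sites against 12.8% of all start sites. Hspa1a at chr17:34972223-34972290 on the minus strand and Hspb1 at chr5:135887772-135887839 on the plus strand are shown for this form. Capitals mark the units.
Hspd1: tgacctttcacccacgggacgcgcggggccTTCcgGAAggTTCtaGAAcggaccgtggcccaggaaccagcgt
Hspe1: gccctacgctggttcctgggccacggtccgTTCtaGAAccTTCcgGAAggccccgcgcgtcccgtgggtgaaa
Dnajb6: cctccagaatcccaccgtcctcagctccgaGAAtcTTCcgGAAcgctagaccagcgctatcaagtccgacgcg
Hspa1a: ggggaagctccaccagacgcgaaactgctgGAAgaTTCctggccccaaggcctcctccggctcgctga
Hspb1: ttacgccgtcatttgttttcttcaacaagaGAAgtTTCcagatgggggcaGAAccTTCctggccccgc

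No chaperone gene was called different between ADX and sham hearts. With limma and Benjamini-Hochberg adjustment over all 16949 genes tested, 0 of 56 were higher and 0 of 56 lower at an adjusted p under 0.05, where 0.0295% of all genes were called higher and 0.0118% lower. The lowest adjusted p of a chaperone gene was 0.225 by limma. At an unadjusted p under 0.05, 0 chaperone genes were higher and 6 were lower, which is 10.7% of the 56. Of all genes tested, 6.27% were higher and 5.99% lower by that rule. The 6 genes were Dnajc5, Dnajc2, Hspa12a, Dnajc3, Dnajc1 and Hspb2.

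The values of the 3 ADX arrays all lay above those of the 3 sham arrays for 4 genes and all below them for 7 genes, 7.14% and 12.5% of the chaperone genes. Over all genes tested the shares were 10.4% and 7.95%. The 4 with higher values were Dnaja1, Dnajb4, Dnajc9 and Dnajc14, and the 7 with lower values were the same 6 genes and Hsp90b1. Of these 4, Dnaja1, Dnajb4 and Dnajc9 each had a dimmer probe with a difference below 0, at -0.09, -0.005 and -0.01. A further Dnaja1 probe was at 0.20. The median difference (ADX minus sham) over the 56 genes was 0.03 on the log2 scale, and the median over all genes tested was also 0.03. With 3 mice per group, the 95% interval of the difference lay within 0.5 log2 of 0 for 35 genes and within 1 log2, a 2-fold difference, for 55 genes. The exception was Dnajc2.

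**Figure D1:**
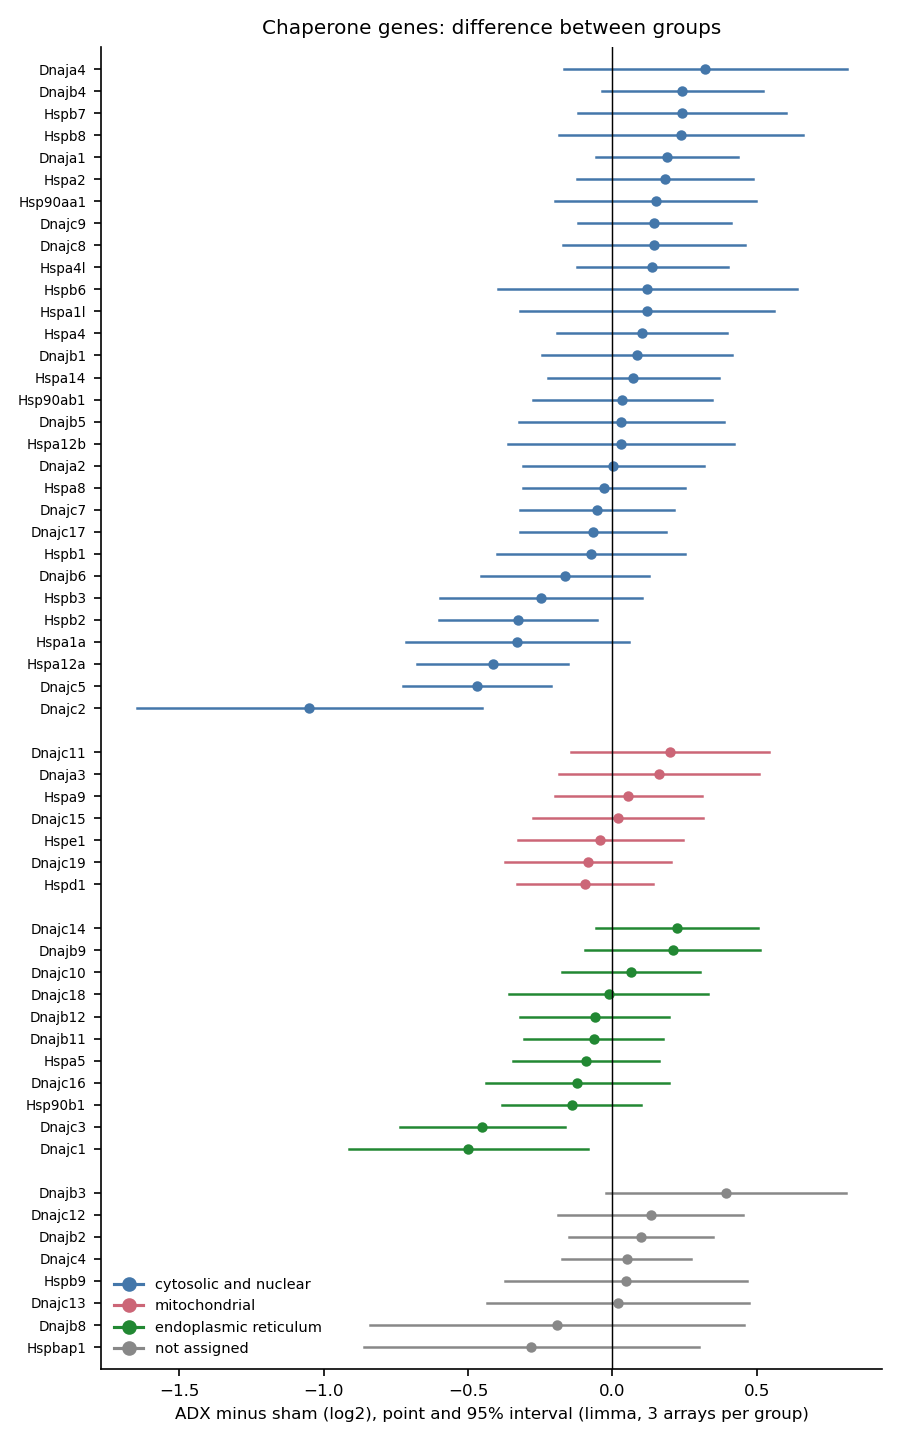
Difference between ADX and sham hearts (log2, horizontal axis) for the 56 tested chaperone genes, grouped by compartment, each point with its 95% interval from limma on 3 arrays per group. The intervals of 6 genes lie wholly below 0, that of Dnajc2 farthest, and none lies wholly above 0.

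The number of genes called differed with the signal and background treatment. The deposited signals had been background-subtracted and detrended by the scanner software. As an alternative, limma's normexp background correction was run on the mean spot signals, without that detrending and with an added offset of 50. With normexp, 12 chaperone genes were higher and 6 lower at an adjusted p under 0.05, 21.4% and 10.7% of the 56. By the same rule, 7.17% of all genes were called higher and 28% lower. The 12 were Dnaja1, Dnaja3, Dnaja4, Dnajb2, Dnajb4, Dnajb9, Dnajc8, Dnajc9, Hsp90ab1, Hspa4, Hspb7 and Hspb8, and all 12 also had a difference above 0 with the deposited signals. The 6 lower genes were Dnajb3, Dnajb8, Dnajc2, Hspa12a, Hspb9 and Hspbap1, of which 2, Dnajc2 and Hspa12a, were among the 6 lower at an unadjusted p with the deposited signals. Only 4 of these 6 had a difference below 0 with the deposited signals, where Dnajb3 was at 0.39 and Hspb9 at 0.05. Over the 56 genes, normexp turned the sign of 19 differences. The normexp calls were split by probe brightness. The 12 higher genes had mean log2 levels of 1.74 to 6.29 in ADX hearts with the deposited signals. The 6 lower genes had dimmer probes, at -3.17 to -0.62. Whether the calls follow probe brightness was not tested. The cause of the larger number of calls was not tested. With slide as a block, 3 chaperone genes were higher and 5 lower at an unadjusted p under 0.05, beside 5.19% and 4.78% of all genes, and none was called after adjustment.

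The share of noncontrol spots well above background was 60.5% to 66.8% for ADX and 57.7% to 60.2% for sham, and the 75th percentile of intensity was 768 to 839 and 644 to 924. The scan dates in the file headers split the arrays into 2 sets, which are called slides here. No slide label was read, so the term is an inference. Slide 1 held ADX replicate 1 and all 3 sham replicates, and slide 2 held ADX replicates 2 and 3. A fit with slide as a block therefore sets ADX replicate 1 alone against the sham arrays. All 10 heart muscle markers were above background on all arrays and 8 had a lower value in ADX hearts, with summed linear signals of 4139 to 4580 in ADX hearts and 4426 to 5206 in sham hearts, in multiples of the 75th percentile. Markers of other tissue parts also differed in value. All 7 atrial markers were lower at an unadjusted p under 0.05 (sum 1108 to 1172 in ADX and 1406 to 2172 in sham hearts). All 8 tested adipocyte markers of 9 had a higher value (405 to 753 and 334 to 466). The adipocyte sums overlapped, since ADX replicate 1 (405) lay below sham replicate 2 (466). Of 9 immediate early genes, which respond to tissue handling, 8 had a lower value (24.4 to 33.5 and 35.4 to 76.8). Of the red cell markers 3 of 3 tested had a higher value (298 to 845 and 383 to 586), and of the T cell markers 3 of 4 (0.513 to 0.796 and 0.387 to 0.578), with sums that overlapped between groups. The part of these markers in the chaperone values was not tested, and in whole-heart RNA fewer cells of a type and less RNA per cell cannot be told apart.

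Hspa1a is the inducible Hsp70 of the cytosol. Its log2 level was 0.24, 0.57 and 0.82 in ADX hearts, against 0.95, 0.90 and 0.76 in sham hearts. ADX replicate 1 was the lowest and ADX replicate 3 lay within the sham range, so the groups overlapped. The difference was -0.33 ± 0.16 (SE; 95% interval -0.72 to 0.06; adjusted p = 0.469, limma). Within slide 1 it was -0.64, and without ADX replicate 1 it was -0.17, the value nearest to 0 when each array was left out in turn. The immediate early genes, also lower in value in ADX hearts, were lowest on the same array, ADX replicate 1. The other tested Hspa1a probes, all dimmer, gave -0.25, -0.24 and 0.05, and the mean over its probes was -0.19. Hspa1a has a near-identical neighbour, Hspa1b, and whether the probes also read Hspa1b was not tested.

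Dnajb1 and Hspb1, also induced by heat shock, lay closer to 0. Dnajb1, the DnaJ partner of inducible Hsp70, had levels of 3.82, 3.71 and 4.0 in ADX hearts, against 3.70, 3.97 and 3.61 in sham hearts, a difference of 0.09 ± 0.14 (SE). Hspb1 (Hsp27), a small heat shock protein that binds actin filaments, had 5.37, 5.46 and 5.24 in ADX hearts, against 5.33, 5.29 and 5.67 in sham hearts, a difference of -0.07 ± 0.14. For both genes the groups overlapped, and the 95% intervals were -0.24 to 0.41 and -0.40 to 0.25. Hsph1 (Hsp110), an exchange factor for Hsp70 that stands on the array under the older name Hsp110 and so outside the 61 genes, went the other way, with 3.04, 3.17 and 3.06 in ADX hearts, against 2.71, 2.95 and 2.52 in sham hearts. All ADX values exceeded all sham values, and the difference was 0.36 ± 0.13 (adjusted p = 0.366, limma). With normexp it was 0.65 (adjusted p = 0.0328, limma).

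The constitutive Hsp70 and the Hsp90 pair, the machinery that also handles the glucocorticoid receptor, were close between groups. Hspa8 (Hsc70), the constitutive cytosolic Hsp70, had levels of 6.94, 6.65 and 6.66 in ADX hearts, against 6.84, 6.74 and 6.75 in sham hearts. The ADX values lay on both sides of the sham values, with a difference of -0.03 ± 0.12 and a 95% interval of -0.31 to 0.25. A second Hspa8 probe differed by 0.40, and the array design places both probes on mm7 chromosome 5 whereas RefSeq has the gene on chromosome 9. Hsp90aa1, the stress-responsive Hsp90, had 4.83, 5.02 and 4.95 in ADX hearts, against 4.80, 5.02 and 4.53 in sham hearts. Sham replicate 3 was the lowest array, and the difference was 0.15 ± 0.15. Hsp90ab1, the constitutive Hsp90, had 6.44, 6.26 and 6.18 in ADX hearts, against 6.20, 6.13 and 6.45 in sham hearts, and differed by 0.03 ± 0.13. Both intervals, -0.20 to 0.50 and -0.28 to 0.34, contained 0.

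The small heat shock proteins of muscle split in value. Hspb2, which binds the myotonic dystrophy protein kinase, had levels of 5.26, 4.95 and 5.04 in ADX hearts, against 5.40, 5.44 and 5.40 in sham hearts. Every ADX array was below every sham array, and the sham arrays lay within a narrow range. The difference was -0.33 ± 0.12 (95% interval -0.60 to -0.05; adjusted p = 0.351, limma), a second probe gave -0.32, and the value within slide 1 was -0.15. Its partner Hspb3 had 2.69, 2.57 and 2.40 in ADX hearts, against 2.99, 2.85 and 2.56 in sham hearts, with overlap and a difference of -0.25 ± 0.15.

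Hspb7, a small heat shock protein of heart and skeletal muscle, had the opposite sign, with 5.96, 5.53 and 5.52 in ADX hearts, against 5.44, 5.31 and 5.54 in sham hearts. ADX replicate 1 alone stood above the sham range, and the difference was 0.24 ± 0.15 (0.53 within slide 1). Hspb8, which works with Bag3 in selective autophagy, had 5.37, 5.09 and 4.83 in ADX hearts, against 4.95, 4.61 and 5.02 in sham hearts, a difference of 0.24 ± 0.18. Hspb6 (Hsp20) had 3.67, 3.55 and 3.24 in ADX hearts, against 3.29, 3.01 and 3.79 in sham hearts, a difference of 0.12 ± 0.22. The groups overlapped for these 3 genes, and all 3 intervals contained 0.

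**Figure D2:**
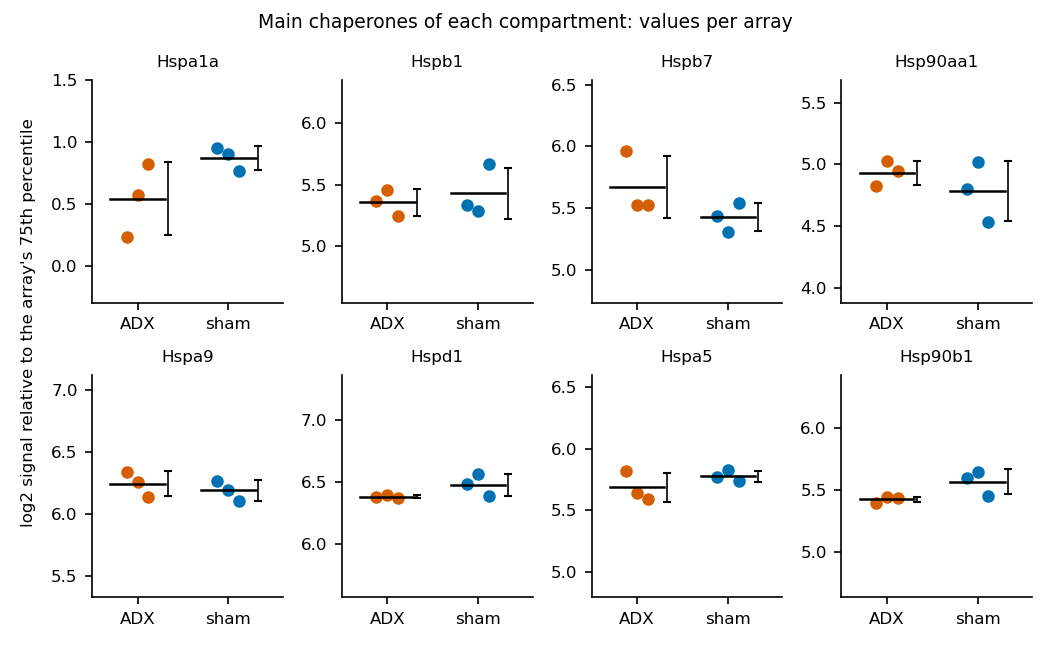
Log2 level (vertical axis, as distance from the array's own 75th percentile) on each array for 8 chaperones of the cytosol (Hspa1a, Hspb1, Hspb7, Hsp90aa1), the mitochondrion (Hspa9, Hspd1) and the ER (Hspa5, Hsp90b1). Points are arrays in order of replicate number, lines are means and bars are SD (n = 3 each), and the groups overlap for all but Hsp90b1.

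The member farthest from 0 was a cytosolic DnaJ protein. Dnajc2, a ribosome-associated DnaJ protein that helps fold nascent chains, had levels of -0.98, -0.34 and -0.53 in ADX hearts, against 0.54, 0.79 and -0.03 in sham hearts. Every ADX array was below every sham array, with ADX replicate 1 lowest and sham replicate 2 highest. The difference was -1.05 ± 0.25, or 2.07-fold lower (95% interval -1.65 to -0.45; adjusted p = 0.232, limma), and it was -1.42 within slide 1. Leaving out single arrays gave -1.28 to -0.86. The other Dnajc2 probe differed by -0.25, so the size rests on the probe used.

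Dnajc5, the cysteine string protein of secretory vesicles, had levels of 2.93, 3.05 and 3.17 in ADX hearts, against 3.52, 3.57 and 3.45 in sham hearts. The groups did not overlap, and the difference was -0.47 ± 0.11 (95% interval -0.72 to -0.21; adjusted p = 0.225, limma). Its other 2 tested probes gave 0.06 and 0.34, and the mean over its probes was -0.02. Hspa12a, a distant Hsp70 relative, had -1.30, -1.42 and -1.58 in ADX hearts, against -1.0, -1.03 and -1.03 in sham hearts. All ADX values were below all sham values, the difference was -0.41 ± 0.11 (95% interval -0.68 to -0.15; adjusted p = 0.263, limma), and the value within slide 1 was -0.28. A second probe also gave -0.41, and a dim one gave 0.12.

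Differences above 0 were smaller than those of Dnajc2 and Dnajc5. Dnajb4, a partner of Hsp70 abundant in muscle, had levels of 3.67, 3.36 and 3.39 in ADX hearts, against 3.24, 3.24 and 3.21 in sham hearts. The groups did not overlap, and the difference was 0.24 ± 0.12 (95% interval -0.04 to 0.52; adjusted p = 0.458, limma). A second, dimmer Dnajb4 probe gave -0.005. Dnaja1, a farnesylated DnaJ partner of Hspa8, had 2.93, 2.98 and 2.84 in ADX hearts, against 2.68, 2.83 and 2.67 in sham hearts. The lowest ADX array exceeded the highest sham array by a small margin, with a difference of 0.19 ± 0.10. Its other tested probes, both dimmer, gave 0.20 and -0.09. The remaining 14 cytosolic and nuclear genes were Dnaja2, Dnaja4, Dnajb5, Dnajb6, Dnajc7, Dnajc8, Dnajc9, Dnajc17, Hspa1l, Hspa2, Hspa4, Hspa4l, Hspa12b and Hspa14. They ranged from -0.16 for Dnajb6 to 0.32 for Dnaja4, and the median of the 30 tested was 0.05.

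**Figure D3:**
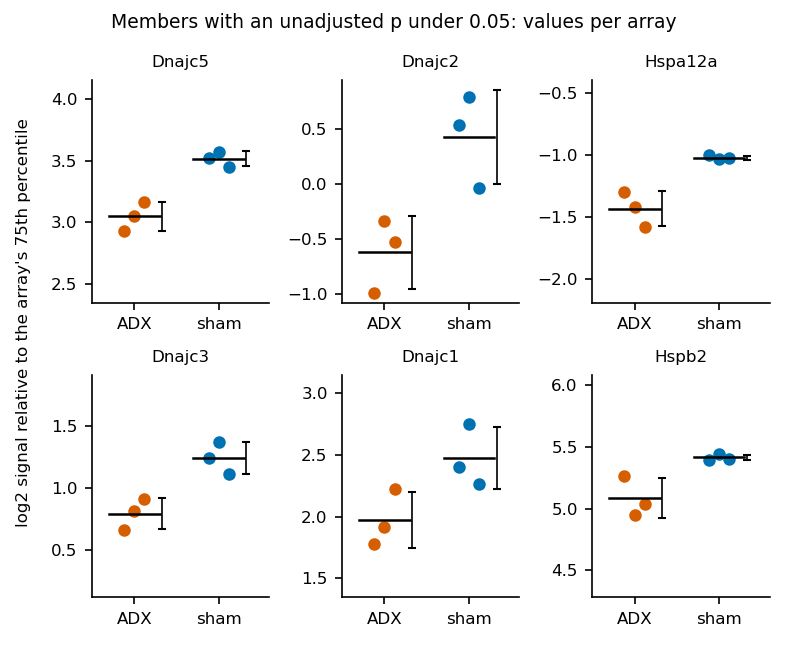
Log2 level (vertical axis, as distance from the array's own 75th percentile) on each array for the 6 chaperone genes with an unadjusted p under 0.05. Points are arrays in order of replicate number, lines are means and bars are SD (n = 3 each). In each panel no ADX array reaches the lowest sham array.

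The mitochondrial chaperones ranged from -0.10 to 0.20 over 7 genes with a median of 0.02, and none reached an unadjusted p under 0.05. Other tested probes of these genes ranged from -0.07 for Dnajc19 to 0.47 for Dnaja3. Hspa9 (mortalin), the Hsp70 that pulls imported proteins into the matrix, had levels of 6.34, 6.25 and 6.14 in ADX hearts, against 6.27, 6.19 and 6.10 in sham hearts. The arrays interleaved, and the difference was 0.06 ± 0.11 (95% interval -0.20 to 0.31). Hspd1 (Hsp60), the chaperonin ring, had 6.38, 6.40 and 6.37 in ADX hearts, against 6.49, 6.56 and 6.39 in sham hearts, a difference of -0.10 ± 0.10 (95% interval -0.33 to 0.14). Hspe1 (Hsp10), its lid, had 4.32, 4.35 and 4.19 in ADX hearts, against 4.35, 4.48 and 4.16 in sham hearts, a difference of -0.04 ± 0.12. The chaperonin genes share the heat shock element printed above, and sham replicate 2 was the highest array for both.

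The mitochondrial DnaJ proteins showed the same lack of separation. Dnajc11, linked to the cristae, had levels of 0.62, 0.47 and 0.24 in ADX hearts, against 0.24, 0.07 and 0.41 in sham hearts, the widest difference of the set at 0.20 ± 0.14. Dnaja3 (Tid1), the partner of Hspa9, had 3.88, 3.88 and 3.48 in ADX hearts, against 3.67, 3.45 and 3.64 in sham hearts, a difference of 0.16 ± 0.15. Dnajc19, a part of the import motor, had 5.71, 5.56 and 5.56 in ADX hearts, against 5.80, 5.77 and 5.51 in sham hearts, a difference of -0.08 ± 0.12. The groups overlapped for all 3. Dnajc15, a related import protein, differed by 0.02.

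Of the 11 ER chaperone genes, 8 had a lower value in ADX hearts and the median difference was -0.07. Of all genes tested, 7354 of 16949 (43.4%) had a lower value. Leaving out each array in turn gave ER medians of -0.13 to -0.05. However, with slide as a block 5 of 11 were lower and the median was 0.04. That fit sets ADX replicate 1 alone against the sham arrays. With normexp 2 of 11 were lower and the median was 0.21. At an unadjusted p under 0.05, 2 ER genes were lower, Dnajc1 and Dnajc3, where 5.99% of all genes were lower. Of 20 other ER folding and stress genes, 12 had a lower value, with a median of -0.03.

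Hspa5 (BiP), the ER Hsp70 and main marker of the unfolded protein response, had levels of 5.82, 5.65 and 5.59 in ADX hearts, against 5.77, 5.83 and 5.74 in sham hearts. ADX replicate 1 lay within the sham range, and the difference was -0.09 ± 0.11 (95% interval -0.35 to 0.16). Hsp90b1 (GRP94), the ER Hsp90, had 5.40, 5.44 and 5.43 in ADX hearts, against 5.60, 5.64 and 5.45 in sham hearts. The groups were separate by a narrow gap, and the difference was -0.14 ± 0.10 (95% interval -0.38 to 0.10; adjusted p = 0.604, limma). A second, dimmer probe gave -0.83, and the mean over both probes gave -0.49.

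Dnajc3 (p58IPK), a BiP partner in the ER that is also known to restrain the kinases of the stress response, had levels of 0.66, 0.81 and 0.91 in ADX hearts, against 1.24, 1.38 and 1.12 in sham hearts. The groups did not overlap, and the difference was -0.45 ± 0.12 (95% interval -0.74 to -0.17; adjusted p = 0.263, limma), or -0.59 within slide 1. Another Dnajc3 probe of similar brightness gave 0.04, and the mean over its probes was -0.29. With the deposited signals and no covariates, Hspa5, Hsp90b1 and Dnajc3, the 3 genes with the ER stress element, all had differences below 0. With slide as a block Hspa5 was at 0.04, and with normexp Hspa5 was at 0.28 and Hsp90b1 at 0.21. The median over all 18 tested genes with that element was -0.03. The 3 genes with the heat shock element of 3 units also had differences below 0, from -0.16 to -0.04, where all 53 tested genes with it had a median of 0.06. With normexp these 3 were above 0, at 0.16 for Dnajb6, 0.25 for Hspd1 and 0.28 for Hspe1. For the form of 2 units, 5 chaperone genes were above and 6 below 0. The presence of an element is a description of the sequence, and no binding was measured.

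The DnaJ proteins of the ER membrane and lumen were mixed. Dnajc1, a membrane DnaJ protein that faces BiP and the ribosome, had levels of 1.78, 1.91 and 2.23 in ADX hearts, against 2.40, 2.75 and 2.27 in sham hearts. ADX replicate 3 lay close under the lowest sham array, and the difference was -0.50 ± 0.17 (95% interval -0.91 to -0.09; adjusted p = 0.348, limma). Within slide 1 it was -0.69. Dnajb9 (ERdj4), which targets misfolded proteins for degradation, had 1.95, 1.61 and 1.66 in ADX hearts, against 1.55, 1.43 and 1.62 in sham hearts, a difference of 0.21 ± 0.13. Within slide 1 it was 0.42, and the mean over its probes was -0.03.

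Dnajb11 (ERdj3), a lumenal BiP partner, had levels of 3.45, 3.39 and 3.42 in ADX hearts, against 3.50, 3.57 and 3.38 in sham hearts, a difference of -0.07 ± 0.10. Dnajc10 (ERdj5), which reduces disulphide bonds, had 1.80, 1.65 and 1.62 in ADX hearts, against 1.63, 1.63 and 1.61 in sham hearts, a difference of 0.06 ± 0.10. Dnajc14, an ER membrane DnaJ protein, had -0.29, -0.41 and -0.30 in ADX hearts, against -0.47, -0.74 and -0.46 in sham hearts, a difference of 0.22 ± 0.12. The groups overlapped for Dnajb11 and Dnajc10 but not for Dnajc14, whose interval, -0.06 to 0.50, contained 0. The other ER genes, Dnajb12, Dnajc16 and Dnajc18, differed by -0.12 to -0.01. The 8 tested genes that were not assigned to a compartment were Dnajb2, Dnajb3, Dnajb8, Dnajc4, Dnajc12, Dnajc13, Hspb9 and Hspbap1. They ranged from -0.28 for Hspbap1 to 0.39 for Dnajb3, a gene known from testis.

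**Figure D4:**
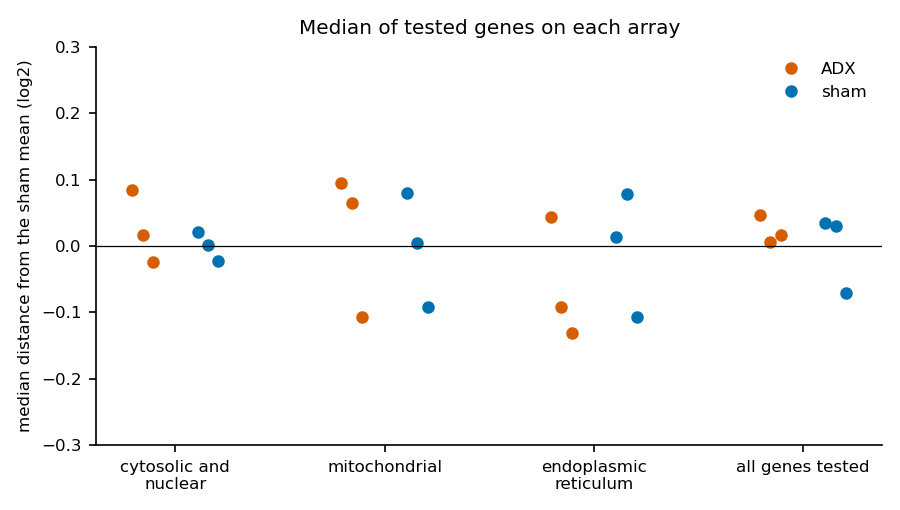
Median distance from the sham mean (log2, vertical axis) over the tested genes of each compartment and over all genes tested, 1 point per array in order of replicate number. ADX and sham arrays overlap in each set. The ER medians are 0.04, -0.09 and -0.13 on the ADX arrays.

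Different probes of the same gene often disagreed, so the choice of probe bears on the chaperone values. Of 106 tested chaperone probes taken singly, 11 were lower at an unadjusted p under 0.05 and 0 were higher, 10.4% and 0%, where 7.39% of all 23990 tested probes were lower and 6.11% higher. Of the 32 genes with at least 2 tested probes, 14 (43.8%) had all their differences on the same side of 0. The share over 5311 genes of all kinds was 57.6%. These shares were not matched for the number of probes per gene, and more probes make a shared sign less likely. They therefore do not show that chaperone probes disagree more than others. The probe sequences of 3 such genes are shown, the first 30 of 60 bases each, since their differences depend on which probe is read. Positions follow the mm7 coordinates of the array design. Which exon or untranslated region a probe lies in was not analysed here.

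The 3 Dnajc5 probes lie at chr2:182049659-182049718, chr2:182052852-182052911 and chr2:182053226-182053285 on the plus strand, in the order printed, and differed by 0.06, -0.47 and 0.34. The middle probe is the brightest and carries the value of the gene. The signs thus change within a short stretch of the gene.
Dnajc5 probe A_51_P178585: tgggaaatgcaagcccaaggcacctgaggg
Dnajc5 probe A_52_P113129: tgctggagtgtaggtttctgtttgtgccca
Dnajc5 probe A_52_P113126: tacttgctggatttgttcctgaatcataaa

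The 4 Dnajc3 probes lie at chr14:113377399-113379018, chr14:113381870-113383374, chr14:113384636-113384695 and chr14:113385516-113385575 on the plus strand, in the order printed, and differed by -0.45, -0.65, 0.04 and -0.11. The design coordinates of the first and second span a gap longer than the probe. These 2 probes, nearer the 5′ end, carry the lower values in ADX hearts. The first carries the value of the gene, with mean levels of 0.79 in ADX and 1.25 in sham hearts. The third, at 0.04, was of similar brightness, with 1.02 and 0.98. The mean over the Dnajc3 probes differed by -0.29.
Dnajc3 probe A_52_P329881: cgagatggcagatacacagatgcaaccagc
Dnajc3 probe A_51_P204237: agaaataccaaaaaacaagaaatcattaaa
Dnajc3 probe A_52_P329875: atgagaaagaagtttgatgatggagaagat
Dnajc3 probe A_52_P264902: gaaagtgaagttccaagttgtttggtcgaa

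The 2 Hsp90b1 probes lie at chr10:86256795-86256854 and chr10:86249236-86249295 on the minus strand, in the order printed. The first gave levels of 2.83, 3.54 and 3.36 in ADX hearts, against 4.11, 4.49 and 3.62 in sham hearts, a difference of -0.83. The second, the brighter one, gave -0.14. The groups did not overlap with either probe.
Hsp90b1 probe A_52_P590546: aatcttgtcaggaagtactctcagttcatc
Hsp90b1 probe A_52_P624149: aatcccgtgtggagagggaatgtgaagttt

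Similar disagreement was seen for other members. The 3 tested Dnajc1 probes gave -0.83, -0.50 and 0.22 in the 5′ to 3′ order of their design positions. Hspa4, an Hsp110-type exchange factor, had 2 probes at 0.10 and another, nearer the 5′ end, at -0.46. Across the 28 chaperone genes whose outermost tested probes were at least 500 bases apart, the 5′ probe had the lower difference in 15 (53.6%), and across 4443 genes of all kinds in 53.2%. The median of the 5′ minus the 3′ difference was -0.01 for the chaperone genes and -0.02 for all genes. This measure of position was chosen after the values of the probes had been seen.

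**Figure D5:**
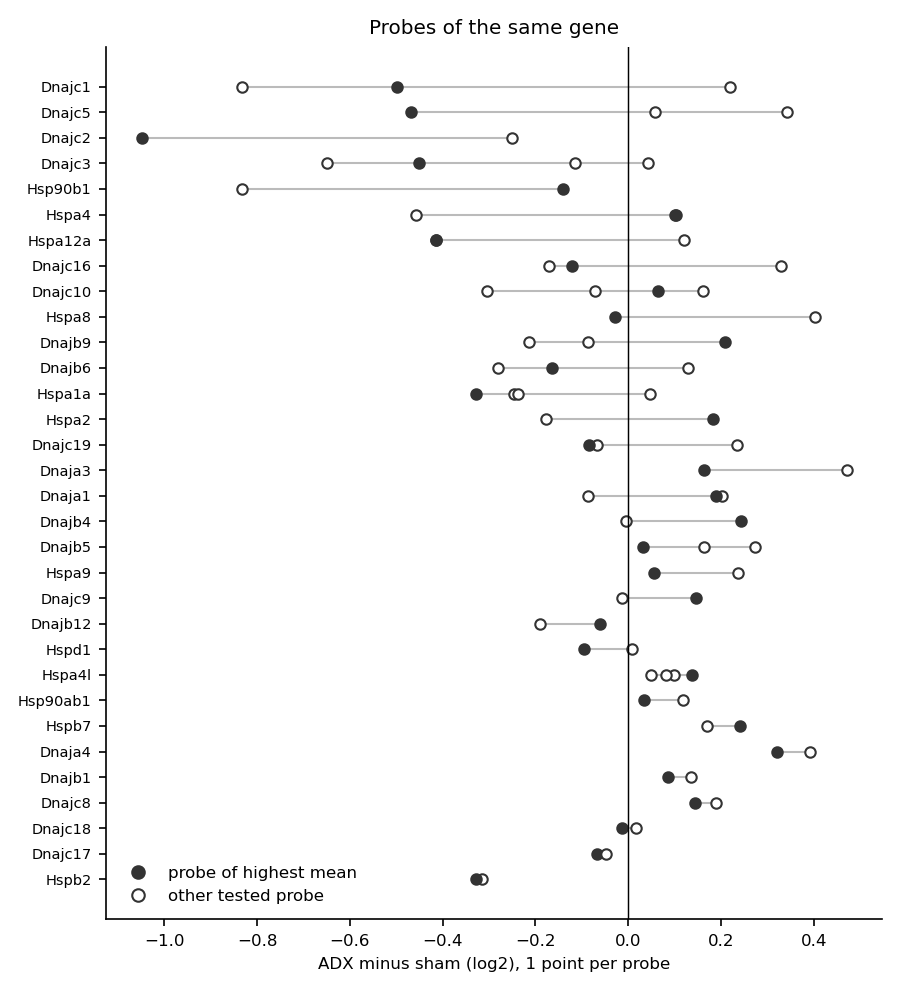
Difference between ADX and sham hearts (log2, horizontal axis) for each tested probe of the 32 chaperone genes with at least 2 tested probes, ordered by the spread among probes. Filled points are the probes of highest mean. The points of Dnajc1, Dnajc5, Dnajc3, Hspa4 and Hspa8 lie on both sides of 0, and both Hspb2 points lie together below 0.

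Chaperones of the same families that stand on the array under other names were read in the same fit. Besides Hsph1, described above, 9 more genes were found and tested. Dnajc25, a membrane DnaJ protein, had levels of 0.28, 0.84 and 0.74 in ADX hearts, against 1.51, 1.48 and 1.22 in sham hearts. The groups did not overlap, and the difference was -0.78 ± 0.17 (adjusted p = 0.208, limma). As for Dnajc2, ADX replicate 1 was the lowest array. The other 8 ranged from -0.17 for Dnajc28 to 0.25 for Hspbp1, an Hsp70 exchange factor.

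The partners and regulators of the chaperones were read from a list of 60 genes, all of them tested. By limma, 0 passed an adjusted p under 0.05 in either direction, and at an unadjusted p under 0.05, 5 were higher and 1 was lower, 8.33% and 1.67%, against 6.27% and 5.99% of all genes. With normexp, 15 were higher and 4 lower at an adjusted p under 0.05, among them Bag2, Cct3, Cct4, Trap1 and Hsf1 above 0 and Hsf2, Hsf4 and Fkbp5 below 0. These calls too were split by probe brightness. Mean log2 levels in ADX hearts were 1.62 to 5.22 for the 15 and -3.49 to -2.75 for the 4. With the deposited signals, the heat shock factors Hsf1, Hsf2 and Hsf4, which drive the heat shock genes, differed by 0.16, 0.13 and -0.23. Fkbp5, an Hsp90 cochaperone whose gene is a known glucocorticoid target, had a difference of -0.31 (adjusted p = 0.588, limma). Its levels were -2.55, -2.46 and -3.24 in ADX hearts, against -2.45, -2.56 and -2.31 in sham hearts. The groups overlapped, and ADX replicate 3 was the lowest array. Bag3, the partner of Hspb8, differed by -0.02 and Cryab, a small heat shock protein of muscle, by -0.11.

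The 5 genes with higher values were Bag2 at 0.38 and Bag4 at 0.33, which bind Hsp70, the cytosolic chaperonin subunits Cct3 at 0.47 and Cct4 at 0.32, and the mitochondrial Hsp90 Trap1 at 0.36. For Cct4, levels were 4.42, 4.23 and 4.28 in ADX hearts, against 4.01, 3.89 and 4.07 in sham hearts, and the groups did not overlap. The adjusted p of these 5 genes was 0.303 to 0.400 by limma. The other 6 subunits of the cytosolic chaperonin, which folds actin and tubulin, ranged from -0.08 to 0.18. The gene with the lower value was Pdia3 at -0.30, an ER disulphide isomerase, with 2.67, 2.66 and 2.70 in ADX hearts, against 2.95, 3.06 and 2.90 in sham hearts (adjusted p = 0.326, limma).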

How the data were processed

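Hearts of 3 ADX and 3 sham mice were measured, and groups were taken from the sample labels, whose design text calls the replicates biological. Per the labels' protocols, RNA was isolated with a silica column kit, amplified as whole-transcriptome cDNA and labelled with Cy3. Per the file headers, Agilent Feature Extraction 9.5.3.1 produced the deposited processed signal, a linear intensity for each spot that is background-subtracted and detrended within the array and not normalized between arrays; the submitters' processing notes give version 9.5. The intensities in the deposited value table equalled those in the scanner output at all 45018 spots of each array. Its scale is therefore linear without centring, with column medians of 75.1, 92.2 and 80.9 for ADX and 70.8, 68.1 and 84.4 for sham.

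Control and outlier spots were left out, intensities were converted to log2 and set relative to their array's 75th percentile, and repeat spots were averaged. Names were updated through RefSeq accessions for 97 of the 123 chaperone probes, and the array names Hspa9a and Dnajb10 are Hspa9 and Dnajb2. Differences (ADX minus sham) were fitted without covariates over all 16949 genes by limma (version 3.58.1, R version 4.3.3; lmFit, then eBayes), and p-values were adjusted by Benjamini-Hochberg with a threshold of 0.05. The fit was checked on simulated data. The number of arrays, 3 per group, limits the precision, and an exact permutation test of 3 against 3 cannot go below a p of 0.1. The median standard error over all genes was 0.14 log2.

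Values on all arrays were given for the 4 genes of smallest p and the 2 of highest signal in each compartment and for a set of main chaperones. Other genes singled out for their probes, their groups or their element were chosen after their values were seen. The members, gene lists and rules were chosen with earlier results of these data known. In all, 20 alternatives were run. The one on the deposited value table repeats the main fit, since its intensities equal those of the scanner output. Coordinates are counted from 1.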

Additional observations from a re-analysis of the deposited data

How the results depend on the processing

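Over 20 alternatives, no chaperone gene passed the adjusted threshold in either direction except with normexp background correction, which gave 12 higher and 6 lower. With normexp, 21 were higher at an unadjusted p under 0.05, and the cytosolic, mitochondrial and ER medians were 0.32, 0.28 and 0.21. Over all genes normexp called 1215 higher and 4738 lower, against 5 and 2, and moved the median of all genes to -0.05. It turned the sign of 19 of the 56 chaperone genes. Among the 29 genes the naming rule picks and the 8 partner or related genes at an unadjusted p under 0.05, these were Dnajb11 (0.26), Dnajc19 (0.27), Hsp90b1 (0.21), Hspa5 (0.28), Hspa8 (0.34), Hspb1 (0.27), Hspb2 (0.025), Hspd1 (0.25), Hspe1 (0.28), Bag4 (-0.43) and Pdia3 (0.023). The cause was not tested.

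With slide as a block, and on slide 1 alone, 3 and 2 chaperone genes were higher at an unadjusted p under 0.05, and the ER median was 0.043 in both. In both, 9 of the 56 signs turned, among those 29 genes for Dnajc19 (0.021), Hspa5 (0.043) and Hspa8 (0.16). Both settings compare ADX replicate 1 with the sham arrays, so their shared differences are not 2 separate checks. The block fit also holds ADX replicates 2 and 3, which add only to the estimate of spread. On slide 1 alone, the 1 ADX array is assumed to vary like the sham arrays. With a variance trend, 1 gene was higher. With every probe fitted singly, 11 probes were lower. Median centring turned 6 signs, among those 29 that of Hsp90ab1 (-0.0035), and the mean over the probes of a gene turned 8, among those 29 those of Dnajb9 (-0.030), Dnajc10 (-0.037), Dnajc19 (0.027) and Hspa8 (0.19). Hspa4l was also among the 8 (-0.12), although all 4 of its probes had a difference above 0 singly. Its dimmest probe had no value on sham replicate 1, so its mean there was over fewer probes. The mitochondrial median was -0.02 with median centring.

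Leaving out each array in turn gave 0 to 1 genes higher and 4 to 7 lower at an unadjusted p under 0.05. The cytosolic median ranged from -0.0014 to 0.081, the mitochondrial from -0.04 to 0.10 and the ER from -0.13 to -0.05. It turned 4 to 7 of the 56 signs. Among those 29, differences that turned sign ranged from -0.039 to 0.13 for Hsp90ab1, -0.12 to 0.020 for Hspa8, -0.13 to 0.031 for Hspe1, -0.058 to 0.33 for Hspb6 and -0.14 to 0.045 for Hspb1.

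With the replicate number as a block, 5 chaperone genes were lower and none passed the adjusted threshold. Deviations of same-numbered arrays from their group means correlated at 0.16, 0.16 and -0.16, so the numbers are not taken as a pairing. With 3 arrays per group, the 95% interval reached beyond 0.5 log2 for 21 of the 56 genes. The probes of the 56 genes tested were flagged well above background on all arrays, but some were dim. Among the dim ones, Dnajb3 went from 0.39 to -0.69 and Hspb9 from 0.05 to -0.61 with normexp.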
